A study of Homo sapiens with 9 samples.

Results

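The lysosomal genes described here are 42 genes, named by symbol in the study's count table, that encode acid hydrolases of the lysosome, their cofactors and proteins of the lysosomal membrane. All 42 were found among the 25382 gene entries of the table, and 41 had enough reads to be tested among 14731 genes. They were measured by RNA-seq in 501mel, an established human melanoma line that is a single line grown in culture. Cells were lipofected with DsiRNA 13.6 against TBX3, with DsiRNA 13.8 against TBX3, or with the control DsiRNA NC1, and all were harvested at 24 h. A DsiRNA is a short double-stranded RNA that Dicer cuts into a silencing guide. Each of the 3 groups has 3 libraries that the labels call biological replicates, 9 in all, with 38105026 to 52272147 counted reads per library. All groups carry the same cell line and the same lipofection, and the labels do not say whether replicates were separate cultures on separate days, so the p-values measure the spread between these libraries.

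Lysosomes are acidic compartments in which soluble hydrolases break down proteins, glycans and lipids that arrive by endocytosis or autophagy. Most hydrolases are tagged with mannose 6-phosphate in the Golgi and carried by receptors, while membrane proteins such as LAMP1 and SCARB2 arrive by their own sorting signals. The melanosome, in which melanocytes and pigmented melanoma cells make melanin, is an organelle related to the lysosome and shares several of these proteins, CD63 among them. MITF, TFEB and TFE3 are related transcription factors that bind the E-box CACGTG, and TFEB and TFE3 are known as activators of lysosomal genes.

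TBX3, the target, stood at 46.4, 41.02 and 39.4 CPM in the 13.6 libraries, 36.1, 33.7 and 36.2 CPM in the 13.8 libraries, and 88.6, 83.8 and 83.99 CPM in the controls. All 6 knockdown libraries had less TBX3 RNA than the lowest control (log2 fold change −1.02 ± 0.07, edgeR adjusted p = 1.3e-07 with 13.6, and −1.27 ± 0.07, edgeR adjusted p = 1.0e-08 with 13.8). Its level was higher with 13.6 than with 13.8 (log2 fold change 0.26 ± 0.07, edgeR adjusted p = 0.00699). CPM here are a gene's counts scaled to a common library size with TMM factors, and a gene "rose", "fell" or "changed" only where edgeR's quasi-likelihood test gave a Benjamini-Hochberg adjusted p under 0.05 over all 14731 genes. Errors of log2 fold changes are SEs and errors of levels are SDs with n = 3 libraries a group. Libraries of a group correlated at 0.995 to 0.998 (Pearson's r across genes, log2 of CPM + 1), and libraries of different groups at 0.972 to 0.984. The 6 melanocytic markers SOX10, MITF, PMEL, MLANA, TYR and DCT summed to 11120 to 12209 CPM in the 13.6 libraries, 9552 to 10102 CPM in the 13.8 libraries and 9873 to 11599 CPM in the controls. Single markers moved in both directions. With 13.6 TYR (1.09 ± 0.07) and SOX10 (0.32 ± 0.07) rose and DCT (−0.49 ± 0.10) and MLANA (−0.20 ± 0.07) fell, and with 13.8 TYR (0.84 ± 0.07) and DCT (0.64 ± 0.10) rose and MITF (−0.97 ± 0.11), SOX10 (−0.35 ± 0.07) and MLANA (−0.27 ± 0.07) fell. Their part in the lysosomal changes was not tested. Markers of leukocytes and macrophages (PTPRC, CD14, CSF1R, AIF1, CD163 and LYZ) summed to 2.34 CPM at most, and those of keratinocytes (KRT5, KRT14 and KRT1) and endothelium (PECAM1 and CDH5) to 0.364 CPM at most.

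Promoter sequences are shown for 7 members whose start regions hold the E-box CACGTG, which MITF, TFEB and TFE3 bind. Of the 42 members, 30 were found in RefSeq's promoter table (GRCh38.p14, 250 bases before to 50 after each gene start, all listed starts of a gene counted), and 10 of these held CACGTG, which is 33.3%. Among all 27305 genes with such a promoter the share was 8.77%, and among the 10476 of them tested here 12.5%. The letters TCACGTGA, which contain that E-box, stood in 5 of the 30, CLN3, CTSA, GAA, GALNS and LAMP1, 16.7%, against 1.18% of all genes and 2.13% of those tested. Both words read the same on either strand. CLN3, CTSD and CD63 hold the E-box and are not shown, and CTSA, CTSF, GAA, GALNS and LAMP1 hold further E-boxes whose windows are not given. Windows of 30 bases on the strand of the gene, 5′ to 3′, are given for 7 of the 10 members, 1 window each. The E-box and any adjoining T before or A after it are in capitals.
GAA: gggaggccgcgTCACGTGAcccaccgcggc
CTSF: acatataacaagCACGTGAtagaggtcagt
ARSB: taattcaataagCACGTGActaaaggattt
CTSA: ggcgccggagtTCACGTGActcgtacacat
GALNS: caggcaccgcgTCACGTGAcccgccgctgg
LAMP1: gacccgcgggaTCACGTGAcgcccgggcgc
NEU1: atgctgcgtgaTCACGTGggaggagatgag
In GRCh38.p14 the windows on the plus strand are chr17:80101493-80101522 for GAA, chr20:45891298-45891327 for CTSA and chr13:113297199-113297228 for LAMP1. Those on the minus strand are chr11:66568712-66568741 for CTSF, chr5:78986101-78986130 for ARSB, chr16:88857104-88857133 for GALNS and chr6:31862930-31862959 for NEU1. A match is a description of these letters, not a bound site.

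The factors themselves did not move alike. MITF stood at 766, 729 and 807 CPM in the 13.6 libraries, 466, 363 and 379 CPM in the 13.8 libraries, and 721, 925 and 729 CPM in the controls. It was lower in every 13.8 library than in any control (log2 fold change −0.97 ± 0.11, edgeR adjusted p = 7.1e-06), and the 13.6 libraries overlapped the controls (−0.045 ± 0.11). TFEB rose with 13.6 (log2 fold change 0.33 ± 0.11, edgeR adjusted p = 0.0249), although its 13.6 libraries overlapped the controls, and fell with 13.8 (−0.46 ± 0.11). TFE3 fell with 13.6 (−0.31 ± 0.06) and stood at 0.024 ± 0.06 with 13.8. TFEC was not tested for lack of reads. Of the 10 members with an E-box in the promoter, 2 rose and 4 fell with 13.6, and 5 rose and 2 fell with 13.8, the rest being not called. Of the 19 tested members in the promoter table without the E-box, 7 rose and 5 fell with 13.6, and 10 rose and 4 fell with 13.8. Over all tested genes 24.9% rose and 25.0% fell with 13.6, and 27.5% rose and 27.9% fell with 13.8. Calls were not counted over all genes with the E-box, and the 2 sets of members were not tested against each other. Members with the E-box went in both directions with each DsiRNA, GAA, CTSA, CTSF and CLN3 down and GALNS and LAMP1 up with 13.6, and GAA, CTSF, ARSB, GALNS and LAMP1 up and NEU1 and CTSD down with 13.8. The part of these factors in the members' changes was not tested.

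Levels per kilobase of transcript spanned a wide range among the 42 genes. Lengths are those of a GENCODE v29 coding transcript for each gene, the one with the longest coding sequence, which need not be the transcript these cells use. CD63, a tetraspanin of lysosomes and melanosomes, was at the top with 1038 ± 68.4 CPM per kilobase in 13.6 cells, 1014 ± 128 in 13.8 cells and 1139.8 ± 227 in control cells, and its ranges overlapped between groups. PSAP, the precursor of the saposins that present sphingolipids to hydrolases, came next with 924 ± 18.3, 897 ± 20.02 and 795 ± 26.99 CPM per kilobase in the same order of groups. The proteases CTSD and CTSB and the acid ceramidase ASAH1 followed, with control levels of 389.8 ± 12.2, 259.9 ± 4.50 and 249 ± 6.65 CPM per kilobase. At the low end stood CTSS, a cysteine cathepsin best known from antigen-presenting cells (0.519 ± 0.00194 CPM per kilobase in the controls), and CTSK, the collagen-degrading cathepsin of osteoclasts (0.291 ± 0.129). GALC, the galactosylceramidase, had 0 to 3 reads a library and 8 reads over all 9 libraries, too few to test.

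**Figure D1:**
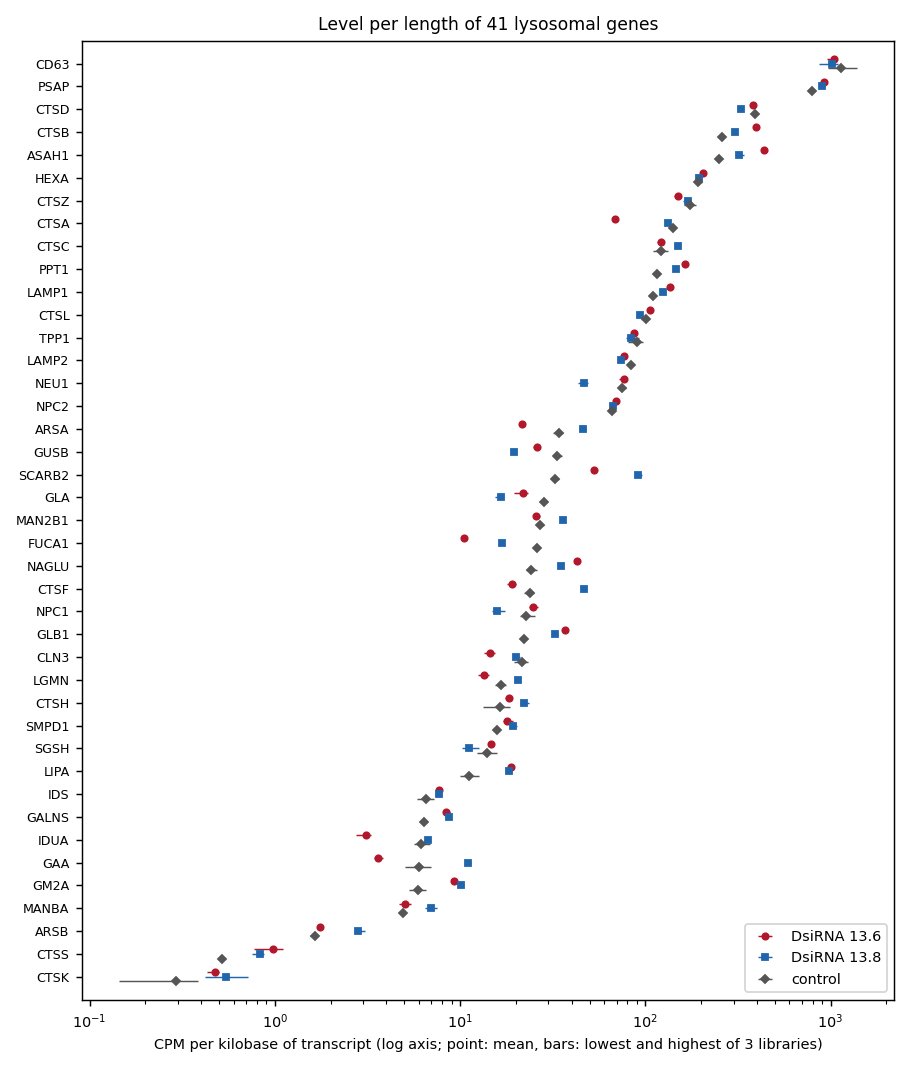
CPM per kilobase of transcript (log axis) of the 41 tested lysosomal genes, with circles for DsiRNA 13.6, squares for DsiRNA 13.8 and diamonds for control. Points are means of 3 libraries and bars run to the lowest and highest library. CD63 and PSAP were highest and CTSS and CTSK lowest in all 3 groups, and CTSA, FUCA1 and GAA with 13.6 and SCARB2 and CTSF with 13.8 stand off from their control points.

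Together the 42 genes took 1.10 to 1.11% of all counted reads in the 13.6 libraries, 1.09 to 1.10% in the 13.8 libraries and 0.976 to 1.02% in the controls. Their summed level was 11102, 11422 and 11297 CPM with 13.6, 10720.1, 10866 and 10745 CPM with 13.8, and 9834, 9666 and 10299 CPM in the controls. Every knockdown library lay above every control in this sum. PSAP had the largest level in every group, at 2614 ± 51.7 CPM with 13.6, 2539.6 ± 56.7 CPM with 13.8 and 2249 ± 76.4 CPM in the controls. It did not have the largest rise in CPM with 13.6. There CTSB went from 1007 ± 17.4 CPM in the controls to 1538 ± 28.5 CPM and ASAH1 from 626 ± 16.7 to 1092 ± 31.2 CPM. Other members fell, such as CTSA from 304 ± 8.83 to 147 ± 1.07 CPM. In bulk RNA a change in the number of cells of a kind and a change in RNA per cell cannot be told apart.

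With DsiRNA 13.6, 14 members rose and 11 fell, while 16 were not called. The 25 called members are 61.0% of the 41 tested, against 49.9% of all 14731 tested genes, of which 24.9% rose and 25.0% fell. The median log2 fold change was 0.07 over the 41 members and −0.01 over all 14731 tested genes, and the members ran from −1.30 to 0.90. The median of the members was 0.022 without control replicate 1 and 0.037 with library totals in place of TMM, which gave 12 rises and 12 falls. Of the 10 tested hydrolases and cofactors of sphingolipid and lipid breakdown, 6 rose and 2 fell. The 6 include PSAP and GM2A, which are cofactors and not enzymes, and SMPD1, whose call was lost under several alternatives. The largest changes were the falls of FUCA1 and CTSA, the only 2 members called with a change of at least 2-fold. The 3 knockdown libraries lay wholly above or below the 3 controls in 28 members (16 above, 12 below), as they did in 56.0% of all tested genes.

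With DsiRNA 13.8, 24 members rose and 8 fell, while 9 were not called. That is 78.0% called, against 55.5% of all tested genes (27.5% higher and 27.9% lower). The median log2 fold change was 0.24 over all tested members and 0.01 over all tested genes, with a range of the members from −0.77 to 1.49. Cysteine cathepsins rose in 6 of 8 and fell in 0 of 8, and by edgeR at an unadjusted p under 0.05, DESeq2 and limma-voom the number that fell was 0 as well. Without control replicate 1, however, a fall of CTSL passed (−0.15). Among the 6 rises, that of CTSK rested on few reads and lost its call under several alternatives. Knockdown and control libraries stood apart in 32 members (24 above, 8 below), against 59.1% of all tested genes. Fibroblast markers moved with 13.8 too: all 4 tested of COL1A1, COL1A2, PDGFRB, LUM and DCN rose, and the 5 summed to 3.93 to 5.07 CPM in the 13.6 libraries, 14.8 to 17.9 CPM in the 13.8 libraries and 4.42 to 5.98 CPM in the controls. Each of the 5 reached 10 reads in at least 1 library, and their part in the lysosomal changes was not tested. Both comparisons use the same 3 control libraries.

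**Figure D2:**
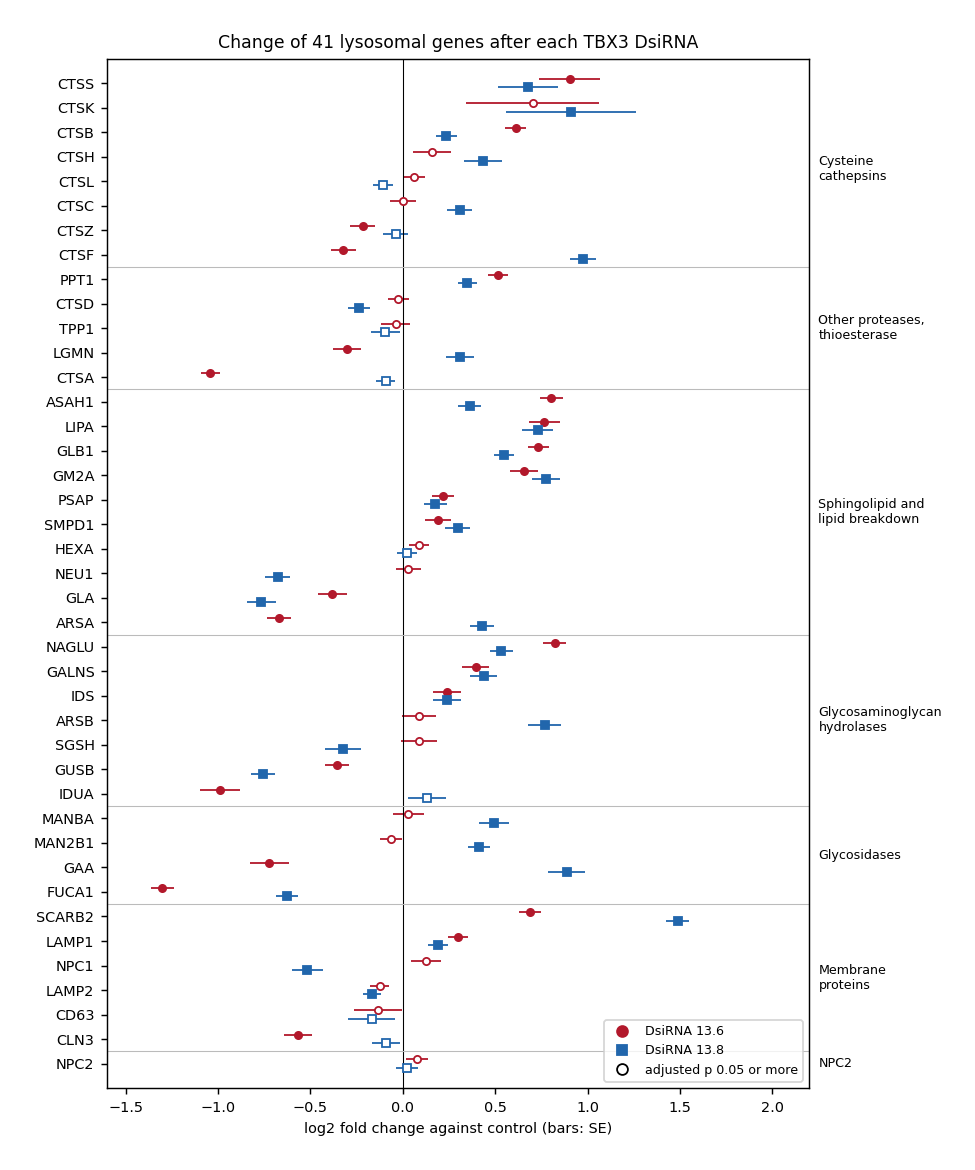
Log2 fold change against control of the 41 tested lysosomal genes, grouped by role, with circles for DsiRNA 13.6 and squares for DsiRNA 13.8. Bars are SEs and open symbols did not pass the test. SCARB2 with 13.8 (1.49) is the largest rise and FUCA1 with 13.6 (−1.30) the largest fall, and GAA, ARSA, CTSF and LGMN have filled symbols on opposite sides of 0.

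Among the cysteine cathepsins, the papain-like proteases of the lysosome, CTSB and CTSS were higher with each DsiRNA. CTSB, the most abundant of them per length, stood at 1518, 1571 and 1527 CPM in the 13.6 libraries, 1196, 1195 and 1168 CPM in the 13.8 libraries, and 991, 1004 and 1026 CPM in the controls. The 13.6 libraries were the highest and the controls the lowest, with no overlap between groups (1.53-fold with 13.6, log2 fold change 0.61 ± 0.06, edgeR adjusted p = 1.6e-06; 1.18-fold with 13.8, 0.24 ± 0.06, edgeR adjusted p = 0.00321). CTSS gave 4.53, 3.17 and 4.29 CPM in the 13.6 libraries, 3.57, 3.59 and 3.09 CPM in the 13.8 libraries, and 2.14, 2.13 and 2.13 CPM in the controls. All 6 knockdown libraries exceeded the controls, at a low level (log2 fold change 0.90 ± 0.16, edgeR adjusted p = 4.6e-04 with 13.6; 0.68 ± 0.16, edgeR adjusted p = 0.00313 with 13.8). Leukocyte markers, of which 2 of 6 were tested and 3 stayed under 10 reads in every library, summed to 1.32 to 1.96 CPM with 13.6, 1.82 to 2.34 CPM with 13.8 and 1.01 to 1.49 CPM in the controls. Of the 2 tested, LYZ rose with 13.8 (0.83 ± 0.27, edgeR adjusted p = 0.0178) and stood at 0.41 ± 0.28 with 13.6, while PTPRC passed with neither (0.72 ± 0.49 and 0.87 ± 0.48), its 13.8 libraries lying above every control, and their part in the level of CTSS was not tested. CTSF, a cathepsin with a long cystatin-like propeptide, went in opposite directions. Its level was 36.6, 38.6 and 41.01 CPM in the 13.6 libraries, 95.5, 91.3 and 98.9 CPM in the 13.8 libraries, and 44.9, 49.4 and 51.02 CPM in the controls. The 13.8 libraries lay above and the 13.6 libraries below every control (1.97-fold and 0.98 ± 0.07 with 13.8, edgeR adjusted p = 8.1e-08; −0.32 ± 0.07 with 13.6, adjusted p = 0.00181).

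CTSC, which activates granule serine proteases, and CTSH, an aminopeptidase, rose with 13.8 (0.31 ± 0.07 and 0.43 ± 0.10) and stood at 0.0016 ± 0.07 and 0.16 ± 0.10 with 13.6, where CTSH passed without control replicate 3 (0.26). CTSK rested on few reads, 35, 39 and 33 with 13.6, 41, 64 and 35 with 13.8, and 27, 25 and 10 in the controls. In CPM these are 0.848, 0.841 and 0.726 CPM in the 13.6 libraries, 0.857, 1.21 and 0.711 CPM in the 13.8 libraries, and 0.584, 0.65 and 0.244 CPM in the controls. The knockdown libraries lay above the controls, and the rise passed with 13.8 (log2 fold change 0.91 ± 0.35, edgeR adjusted p = 0.0422) and not with 13.6 (0.70 ± 0.36). Dropping control replicate 3 (0.59), 13.8 replicate 1 (0.97) or 13.8 replicate 2 (0.66) ended the call with 13.8, as did a fit of the 2 groups alone (0.92). CTSZ, an exopeptidase, fell with 13.6 (−0.22 ± 0.07), which no longer passed on dropping control replicate 3 (−0.15) or 13.6 replicate 1 (−0.18), and stood at −0.039 ± 0.07 with 13.8. CTSL, an endopeptidase, did not pass with either DsiRNA (0.063 ± 0.06 with 13.6 and −0.11 ± 0.06 with 13.8), and without control replicate 1 its fall with 13.8 passed (−0.15). Cystatins inhibit these proteases, and the 3 tested of 5 listed were CSTB, CST3 and CSTA. CSTB rose with 13.6 (0.21 ± 0.07) and fell with 13.8 (−0.34 ± 0.07), and CST3 rose with 13.6 (0.36 ± 0.09) and stood at 0.21 ± 0.09 with 13.8, and CSTA rose with 13.8 (0.95 ± 0.30) and stood at 0.31 ± 0.31 with 13.6.

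The other proteases and the thioesterase PPT1 divided. CTSA, a serine carboxypeptidase that also holds GLB1 and NEU1 in a protective complex, gave 147, 149 and 146 CPM in the 13.6 libraries, 284, 282 and 288 CPM in the 13.8 libraries, and 294, 312 and 305 CPM in the controls. In GENCODE v29 exons of NEURL2 and PLTP on the opposite strand overlap 11.4% and 9.31% of the CTSA transcript. The 13.6 libraries were at 0.485 of the control level (log2 fold change −1.04 ± 0.05, edgeR adjusted p = 8.8e-09). The 13.8 libraries also lay just below the controls, without passing the test (−0.094 ± 0.05, edgeR adjusted p = 0.142). LGMN, an asparaginyl endopeptidase that processes other cathepsins, stood at 30.4, 28.4 and 26.4 CPM in the 13.6 libraries, 44.1, 41.7 and 44.3 CPM in the 13.8 libraries, and 32.8, 37.5 and 34.7 CPM in the controls. The 13.8 libraries were above and the 13.6 libraries below all controls (−0.30 ± 0.07 with 13.6, edgeR adjusted p = 0.00452; 0.31 ± 0.07 with 13.8, adjusted p = 0.0031). PPT1, which removes palmitate from proteins, rose with each DsiRNA (0.52 ± 0.05 with 13.6 and 0.35 ± 0.05 with 13.8). The aspartic protease CTSD fell with 13.8 (−0.24 ± 0.06) and stood at −0.024 ± 0.06 with 13.6, and the tripeptidyl peptidase TPP1 passed with neither (−0.039 ± 0.08 and −0.095 ± 0.08).

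**Figure D3:**
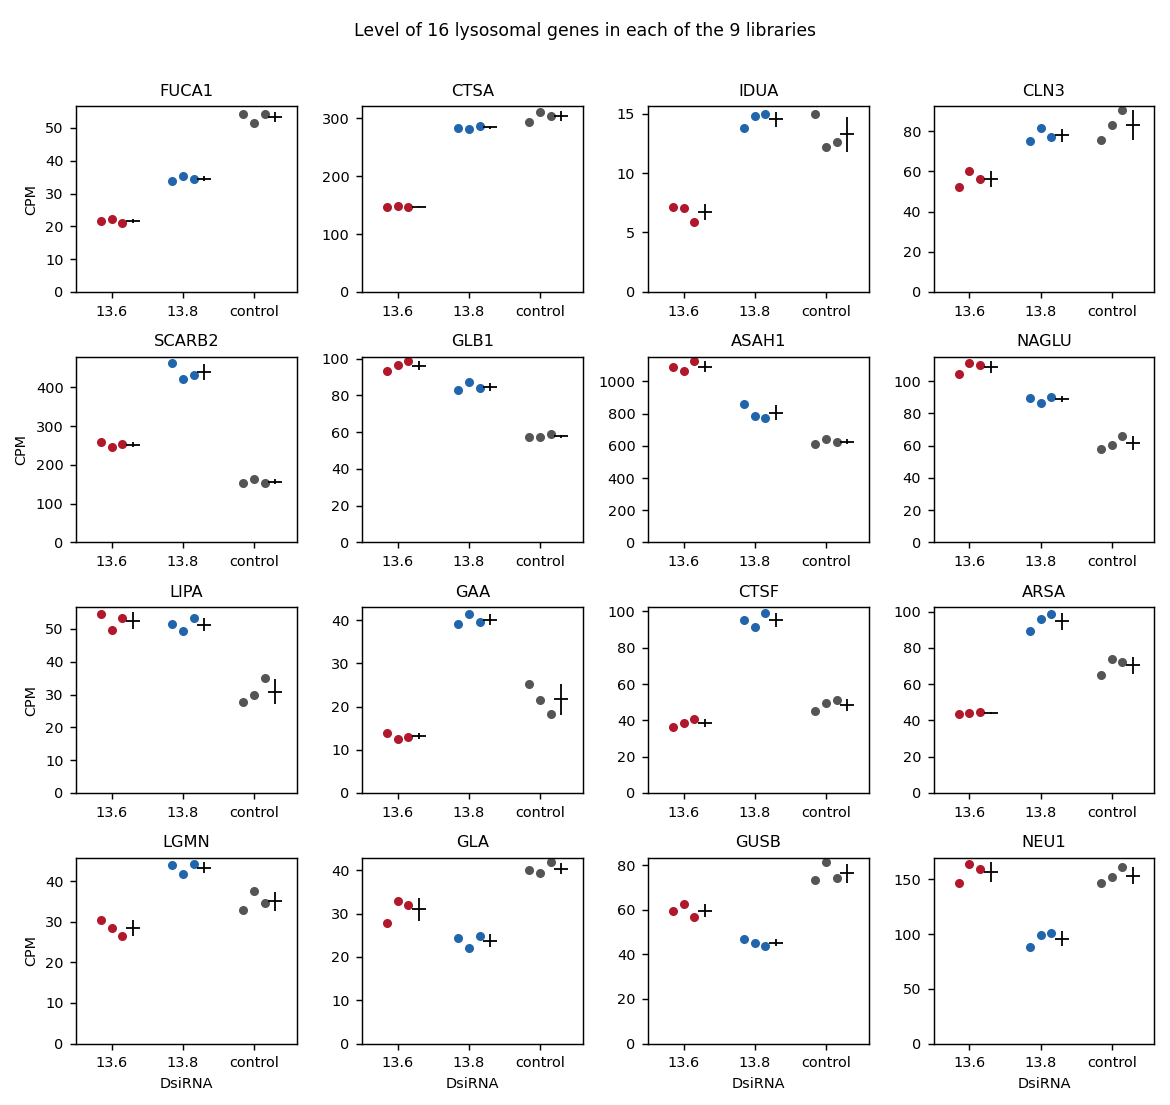
CPM of 16 lysosomal genes in each library, with DsiRNA 13.6, DsiRNA 13.8 and control from left to right, each axis starting at 0. Points are libraries and the dash beside them is the mean with its SD (n = 3). SCARB2 reached 421 to 463 CPM with 13.8, while CTSA dropped to 146 to 149 CPM with 13.6.

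In the breakdown of sphingolipids and other lipids, 6 of 10 tested members rose with 13.6 and 7 with 13.8. Of all tested genes 24.9% and 27.5% rose. ASAH1, the acid ceramidase that yields sphingosine, stood at 1087, 1064 and 1126 CPM in the 13.6 libraries, 857, 784 and 771 CPM in the 13.8 libraries, and 609, 642 and 626 CPM in the controls. The 3 groups did not overlap, with 13.6 highest and control lowest (1.75-fold with 13.6, log2 fold change 0.80 ± 0.06, edgeR adjusted p = 3.4e-07; 1.29-fold with 13.8, 0.36 ± 0.06, edgeR adjusted p = 2.9e-04). GLB1, the beta-galactosidase that removes galactose from gangliosides, gave 93.4, 96.6 and 98.7 CPM in the 13.6 libraries, 82.9, 87.1 and 84.1 CPM in the 13.8 libraries, and 57.2, 57.6 and 58.8 CPM in the controls. It had the same order of groups without overlap (1.66-fold and 1.46-fold, edgeR adjusted p = 2.2e-07 and 2.1e-06). LIPA, the acid lipase that frees cholesterol and fatty acids from lipoprotein esters, stood at 54.5, 49.6 and 53.5 CPM in the 13.6 libraries, 51.4, 49.2 and 53.2 CPM in the 13.8 libraries, and 27.8, 29.9 and 35.1 CPM in the controls. All 6 knockdown libraries exceeded the controls and overlapped each other (1.70-fold with 13.6 and 1.66-fold with 13.8, edgeR adjusted p = 6.8e-06 and 7.3e-06).

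GM2A, the activator that lifts GM2 ganglioside to hexosaminidase, gave 35.4, 36.6 and 36.9 CPM in the 13.6 libraries, 41.1, 38.3 and 38.9 CPM in the 13.8 libraries, and 23.1, 25.4 and 20.7 CPM in the controls. Its 6 knockdown libraries lay above the controls (0.66 ± 0.08 with 13.6 and 0.77 ± 0.08 with 13.8, edgeR adjusted p = 1.4e-05 and 2.1e-06). Smaller rises were those of PSAP (0.22 ± 0.06 with 13.6 and 0.18 ± 0.06 with 13.8) and of the acid sphingomyelinase SMPD1 (0.19 ± 0.07 and 0.30 ± 0.07). PSAP with 13.8 no longer passed on dropping control replicate 2 (0.15) or any 1 of the 13.8 libraries (0.17, 0.16 and 0.19), in a fit of the 2 groups alone (0.19) or with no filter on low counts (0.16). SMPD1 with 13.6 no longer passed on dropping control replicate 1 (0.17), control replicate 2 (0.19), 13.6 replicate 2 (0.14) or 13.6 replicate 3 (0.20), or with library totals in place of TMM (0.15). HEXA, the alpha subunit of the hexosaminidase that GM2A serves, stood at 0.088 ± 0.05 with 13.6 and 0.021 ± 0.05 with 13.8 and passed with neither.

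GLA fell with each DsiRNA, ARSA fell with 13.6 and rose with 13.8, and NEU1 fell with 13.8. GLA, the alpha-galactosidase that cleaves globotriaosylceramide, gave 27.9, 33.02 and 32.1 CPM in the 13.6 libraries, 24.4, 22.1 and 24.7 CPM in the 13.8 libraries, and 40.03, 39.3 and 41.9 CPM in the controls. The controls were highest and the 13.8 libraries lowest (−0.38 ± 0.08 with 13.6 and −0.77 ± 0.08 with 13.8, edgeR adjusted p = 0.00122 and 2.7e-06). ARSA, which removes sulfate from sulfatide, stood at 43.8, 44.2 and 44.8 CPM in the 13.6 libraries, 89.4, 96.2 and 98.7 CPM in the 13.8 libraries, and 65.02, 73.9 and 72.5 CPM in the controls. It was below all controls with 13.6 and above them with 13.8 (−0.67 ± 0.07 and 0.43 ± 0.07, edgeR adjusted p = 2.7e-06 and 9.9e-05). NEU1, the sialidase of the CTSA complex, gave 147, 164 and 160.0 CPM in the 13.6 libraries, 88.1, 98.9 and 101 CPM in the 13.8 libraries, and 147, 152 and 162 CPM in the controls. The 13.8 libraries lay below all others, a fall of 37.5% (log2 fold change −0.68 ± 0.07, edgeR adjusted p = 2.5e-06), and the 13.6 libraries overlapped the controls (0.031 ± 0.07). Within the complex of CTSA, NEU1 and GLB1, CTSA fell with 13.6, NEU1 fell with 13.8, and GLB1 rose with each.

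Of 7 hydrolases of glycosaminoglycans, 3 rose and 2 fell with 13.6, and 4 rose and 2 fell with 13.8. Of all tested genes 24.9% rose and 25.0% fell with 13.6, and 27.5% rose and 27.9% fell with 13.8. NAGLU, which removes N-acetylglucosamine from heparan sulfate, stood at 104.3, 111 and 110.0 CPM in the 13.6 libraries, 89.5, 86.6 and 90.4 CPM in the 13.8 libraries, and 57.6, 60.4 and 66.1 CPM in the controls. The 13.6 libraries were highest and the controls lowest with no overlap (1.77-fold with 13.6 and 1.45-fold with 13.8, edgeR adjusted p = 2.9e-07 and 1.0e-05). IDUA, the iduronidase of heparan and dermatan sulfate, gave 7.15, 7.03 and 5.91 CPM in the 13.6 libraries, 13.8, 14.8 and 14.96 CPM in the 13.8 libraries, and 14.95, 12.2 and 12.6 CPM in the controls. Exons of SLC26A1 on the opposite strand overlap 6.52% of its transcript. Only the 13.6 libraries stood apart from the controls, 49.6% below control (log2 fold change −0.99 ± 0.11, edgeR adjusted p = 6.8e-06), against 0.13 ± 0.10 with 13.8, which did not pass. ARSB, a sulfatase of dermatan sulfate, stood at 9.45, 9.12 and 9.65 CPM in the 13.6 libraries, 14.2, 14.7 and 16.3 CPM in the 13.8 libraries, and 9.15, 8.24 and 9.12 CPM in the controls. It rose with 13.8 to 1.70 times the control level (log2 fold change 0.77 ± 0.09, edgeR adjusted p = 9.6e-06), and the 13.6 libraries overlapped the controls (0.089 ± 0.09).

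GUSB, the beta-glucuronidase often used as a reference gene in quantitative PCR, gave 59.4, 62.5 and 56.7 CPM in the 13.6 libraries, 46.7, 45.1 and 43.8 CPM in the 13.8 libraries, and 73.2, 81.4 and 74.4 CPM in the controls. Its groups did not overlap, with 13.8 lowest and control highest (−0.36 ± 0.07 with 13.6 and −0.76 ± 0.07 with 13.8, edgeR adjusted p = 4.9e-04 and 5.4e-07). GALNS, a sulfatase of keratan sulfate, rose with each DsiRNA (0.39 ± 0.07 and 0.44 ± 0.07), as did the iduronate sulfatase IDS (0.24 ± 0.08 and 0.24 ± 0.08). The rise of IDS with 13.6 no longer passed on dropping control replicate 2 (0.23), control replicate 3 (0.17), 13.6 replicate 1 (0.22) or 13.6 replicate 2 (0.23), or with library totals (0.20). Its rise with 13.8 ended on dropping control replicate 2 (0.23), control replicate 3 (0.16) or 13.8 replicate 2 (0.22). SGSH, the sulfamidase of heparan sulfate, stood at 40.7, 41.6 and 41.2 CPM in the 13.6 libraries, 35.1, 28.6 and 29.2 CPM in the 13.8 libraries, and 38.1, 43.9 and 34.3 CPM in the controls. The 13.8 libraries overlapped the controls, although the fall passed the test (log2 fold change −0.32 ± 0.10, edgeR adjusted p = 0.0121), and it no longer passed on dropping control replicate 2 (−0.23) or 13.8 replicate 2 (−0.27). GUSB and IDS have near-identical pseudogene copies elsewhere in the genome, so their reads are less certain.

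Among the 4 glycosidases of glycogen and glycoproteins, no member rose and 2 fell with 13.6, where 24.9% of all tested genes rose and 25.0% fell. With 13.8, 3 of 4 rose, where 27.5% of all tested genes did, and 4 genes are too few to show a trait of the group. FUCA1, which removes fucose, gave 21.6, 22.3 and 21.00 CPM in the 13.6 libraries, 33.7, 35.4 and 34.5 CPM in the 13.8 libraries, and 54.3, 51.6 and 54.1 CPM in the controls. It was the largest fall of the set with 13.6, 59.5% (log2 fold change −1.30 ± 0.06, edgeR adjusted p = 6.7e-09), and fell by 35.2% with 13.8 (−0.63 ± 0.06, edgeR adjusted p = 1.6e-06), with no overlap between groups. GAA, the acid alpha-glucosidase that degrades glycogen, stood at 13.96, 12.5 and 13.1 CPM in the 13.6 libraries, 39.2, 41.5 and 39.7 CPM in the 13.8 libraries, and 25.3, 21.5 and 18.2 CPM in the controls. The 13.6 libraries were 39.4% below control (log2 fold change −0.72 ± 0.11, edgeR adjusted p = 8.4e-05) and the 13.8 libraries 1.85-fold above it (0.89 ± 0.10, edgeR adjusted p = 7.3e-06). The mannosidases MANBA and MAN2B1 rose with 13.8 (0.49 ± 0.08 and 0.41 ± 0.06) and stood at 0.029 ± 0.08 and −0.063 ± 0.06 with 13.6. The number of rises with 13.6 was 0 by edgeR at an unadjusted p under 0.05 and by DESeq2 and limma-voom as well.

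Of 6 membrane proteins, SCARB2 changed most. SCARB2, also called LIMP-2, is a glycoprotein that spans the lysosomal membrane. Its level was 258, 246 and 253 CPM in the 13.6 libraries, 463, 421 and 433 CPM in the 13.8 libraries, and 153, 164 and 152 CPM in the controls. The 3 groups did not overlap, with 13.8 highest (2.80-fold, log2 fold change 1.49 ± 0.06, edgeR adjusted p = 8.1e-10), 13.6 next (1.61-fold, 0.69 ± 0.06, edgeR adjusted p = 8.2e-07) and control lowest. LAMP1, a main glycoprotein of the lysosomal membrane, rose with each (0.30 ± 0.05 and 0.19 ± 0.05). Its relative LAMP2 fell with 13.8 (−0.17 ± 0.05), which ended on dropping 13.8 replicate 2 (−0.16), and with 13.6 stood at −0.13 ± 0.05 below all controls, where DESeq2 (−0.13), library totals (−0.16) and a minimum mean of 50 reads (−0.12) called it.

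NPC1, the transporter that exports cholesterol from the lysosome, gave 136, 128 and 121 CPM in the 13.6 libraries, 90.6, 79.1 and 76.7 CPM in the 13.8 libraries, and 131, 113 and 109 CPM in the controls. The 13.8 libraries lay below all others (log2 fold change −0.52 ± 0.08, edgeR adjusted p = 1.6e-04), and the 13.6 libraries overlapped the controls (0.13 ± 0.08), where a rise passed without control replicate 1 (0.21). Its luminal partner NPC2 passed with neither (0.074 ± 0.06 and 0.020 ± 0.06). CLN3, a membrane protein lost in juvenile Batten disease, stood at 52.3, 60.03 and 56.1 CPM in the 13.6 libraries, 75.2, 81.5 and 77.2 CPM in the 13.8 libraries, and 75.8, 83.2 and 90.5 CPM in the controls. Exons of another coding gene on its own strand overlap 43.8% of its transcript in GENCODE v29, and those of APOBR on the opposite strand 14.0%. It was below all controls with 13.6 (log2 fold change −0.57 ± 0.08, edgeR adjusted p = 4.1e-05) and overlapped them with 13.8 (−0.092 ± 0.08). CD63 passed with neither (−0.13 ± 0.13 and −0.17 ± 0.13), and its control libraries varied widely (1297, 1196 and 1723 CPM).

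**Figure D4:**
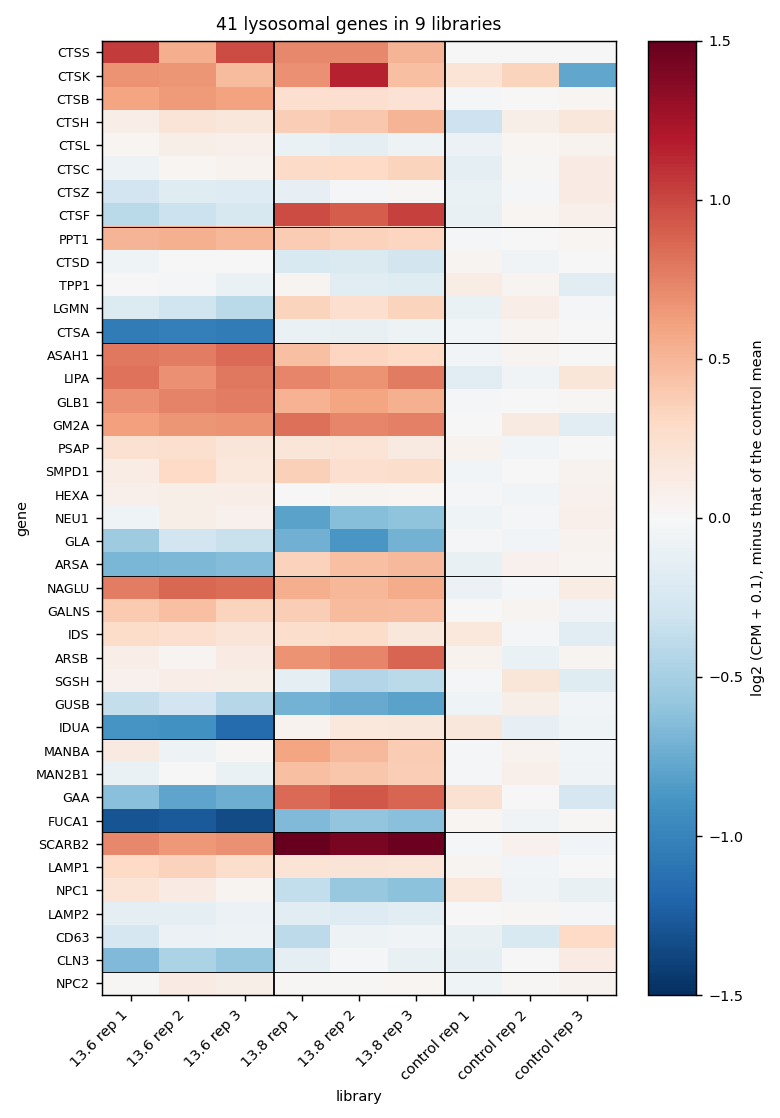
Log2 of CPM + 0.1 of each lysosomal gene in each library, minus the log2 of its control mean + 0.1, in colour (red higher, blue lower, colours end at 1.5 in either direction). Rows are the 41 tested genes by role and columns the 3 libraries of DsiRNA 13.6, of DsiRNA 13.8 and of control. The 3 libraries of a group share their colours in most rows, and CTSK varies more among the control libraries than any other row.

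DsiRNA 13.6 was also set directly against DsiRNA 13.8, a contrast that does not involve the control mean. It was taken from the fit to all 9 libraries, so the controls enter the shared spread, the filter and the TMM factors. Of the 41 members 12 were higher with 13.6 and 15 lower, while 14 were not called, so that 65.9% were called, against 61.1% of all tested genes (30.9% higher and 30.2% lower). The share is near the background. The median was 0.03 over the members (−0.012 with library totals in place of TMM, 0.010 to 0.026 without single libraries) and −0.02 over all genes, with a range from −1.61 to 0.71. The libraries of the DsiRNAs stood apart in 31 members (15 above, 16 below), against 68.8% of all tested genes.

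The 4 members called in opposite directions against control were all lower with 13.6 than with 13.8. They are 9.76% of the 41 tested, against 9.01% of all 14731 tested genes that were called in opposite directions in either order. Of all tested genes, 608 were lower with 13.6 and higher with 13.8, as these 4 are, and 719 were the reverse. Both comparisons against control use the same controls. The difference was −1.61 ± 0.10 for GAA, −1.30 ± 0.07 for CTSF, −1.10 ± 0.07 for ARSA and −0.61 ± 0.07 for LGMN (edgeR adjusted p = 3.3e-08, 6.3e-09, 1.7e-08 and 1.1e-05). IDUA (−1.12 ± 0.11), CTSA (−0.95 ± 0.05), SCARB2 (−0.80 ± 0.06), ARSB (−0.68 ± 0.09), FUCA1 (−0.68 ± 0.06), MAN2B1 (−0.47 ± 0.06), CLN3 (−0.47 ± 0.08) and MANBA (−0.46 ± 0.08) were lower with 13.6 as well. All 4 glycosidases of glycogen and glycoproteins are among the 15 members lower with 13.6, where 30.2% of all tested genes were lower. Higher with 13.6 were NEU1 (0.71 ± 0.07), NPC1 (0.64 ± 0.08), ASAH1 (0.44 ± 0.06), SGSH (0.41 ± 0.10), GUSB (0.40 ± 0.07), GLA (0.38 ± 0.08), CTSB (0.38 ± 0.06), NAGLU (0.29 ± 0.06), CTSD (0.21 ± 0.06) and GLB1 (0.18 ± 0.05). CTSC was lower with 13.6 (−0.31 ± 0.07).

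Some differences between the DsiRNAs lay near the threshold and were not called with fewer libraries. PPT1 (0.17 ± 0.05) was not called without 13.6 replicate 2 (0.16) or 13.8 replicate 3 (0.16) or with library totals (0.12). CTSL (0.17 ± 0.06) was not called without 13.6 replicate 2 (0.16) or 3 (0.16), without 13.8 replicate 2 (0.16) or with library totals (0.12). CTSH (−0.27 ± 0.10) lost its call without any of 5 of the 6 libraries (−0.23 to −0.29, 13.8 replicate 1 being the exception), as CTSZ (−0.18 ± 0.07) did (−0.14 to −0.19), and CTSZ also with no filter on low counts (−0.16). For LIPA (0.035 ± 0.08), IDS (0.0014 ± 0.08), PSAP (0.041 ± 0.06), GALNS (−0.044 ± 0.07), SMPD1 (−0.11 ± 0.07) and GM2A (−0.12 ± 0.08) the difference did not pass, which does not show that the levels were the same.

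**Figure D5:**
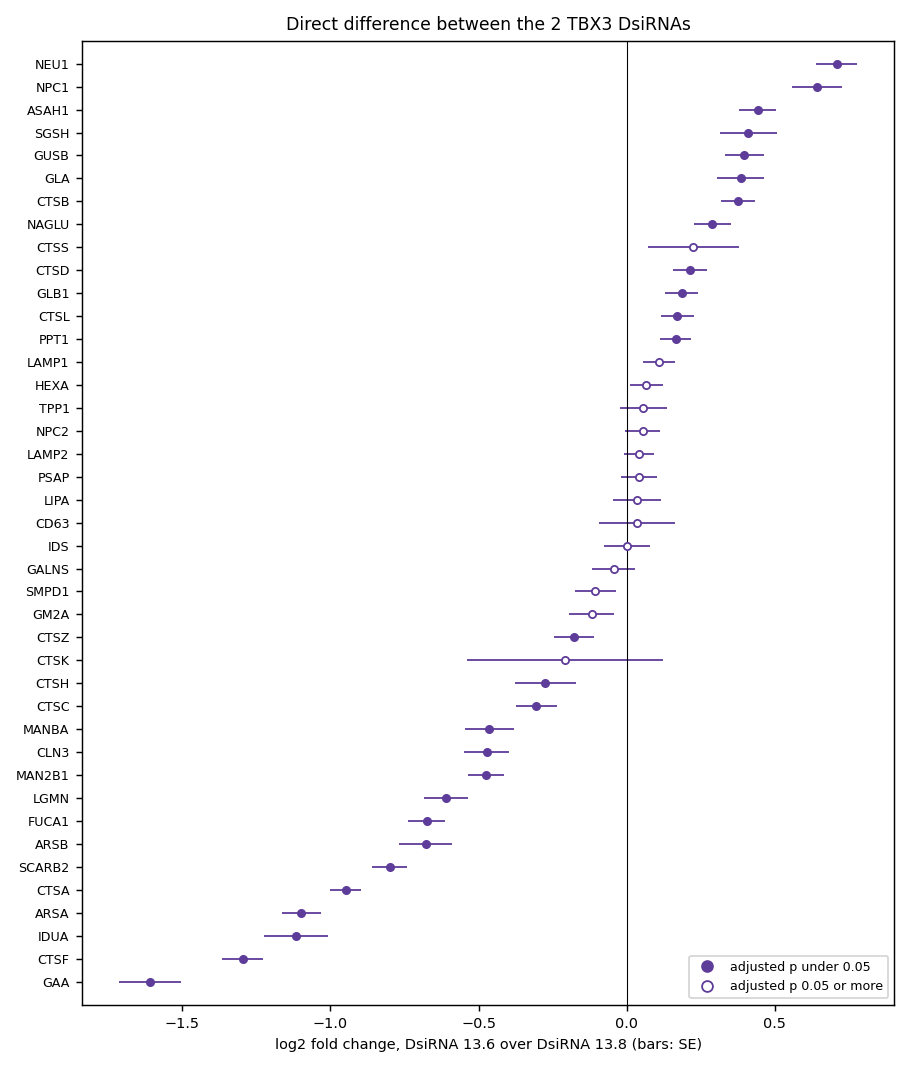
Log2 fold change of DsiRNA 13.6 over DsiRNA 13.8 for the 41 tested lysosomal genes in order of size, with bars for the SE. Filled points passed the test at an adjusted p under 0.05 and open points did not. GAA, CTSF, IDUA and ARSA are the 4 lowest and NEU1 and NPC1 the 2 highest.

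A set of 3 words of 7 bases was looked up in 3′ UTRs, because an earlier search of these same data had picked them for the change of their carriers. They were searched on the transcript strand of 1 GENCODE v29 transcript per gene, and since they were chosen on these data no test is given. The word GCTCTGT stood in 7 of 40 members with a usable UTR, 17.5%, and in 17.5% of 12306 tested genes. A second word, GATTAAC, was found in IDS and ASAH1, against 4.79% of genes. The last word, AACTGTC, was in 0 of 40 members, against 9.45% of genes. Positions are given for GCTCTGT only. In the carriers not shown, ARSB and MANBA, it starts at bases 848, 902 and 2559 of a 3′ UTR of 3188 bases and at base 134 of 475. Windows of 29 bases around GCTCTGT, in capitals, are shown for the 5 of 7 carriers that were called with 13.6, a choice made on their values.
FUCA1: aatgtgattctGCTCTGTctttttaagta
GAA: cctggagggctGCTCTGTgttaataagat
CTSF: tcttaagcccaGCTCTGTtctgcccccgc
LGMN: gggtgggaaaaGCTCTGTattgagaaggg
GM2A: atattaggagtGCTCTGTtgtttacaaac
In the order shown, the word starts at base 574 of a 3′ UTR of 638 bases in FUCA1 (chromosome 1), 240 of 548 in GAA (chromosome 17), 328 of 470 in CTSF (chromosome 11), 218 of 475 in LGMN (chromosome 14) and 602 of 2989 in GM2A (chromosome 5). The carriers were FUCA1, GAA, CTSF, LGMN, ARSB, MANBA and GM2A. With 13.6 FUCA1, GAA, CTSF and LGMN fell, GM2A rose and ARSB and MANBA did not pass. With 13.8 FUCA1 fell and the other 6 rose. Since the word was picked on these libraries, nothing is read from these directions.

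Further lysosomal genes outside the 42 were read from a list of 71, of which 67 were tested. With 13.6, 25 rose and 19 fell, 65.7% called, against 49.9% of all tested genes, and with 13.8, 28 rose and 18 fell, 68.7% called, against 55.5%. Among all genes with a mean of at least 50 reads, 56.3% were called with 13.6 and 61.1% with 13.8. The 67 further genes were not recounted at that depth. Their median log2 fold changes were 0.03 with 13.6 and 0.10 with 13.8. Of 26 further soluble hydrolases 9 rose and 7 fell with 13.6, and 16 rose and 3 fell with 13.8, where 27.5% of all tested genes rose and 27.9% fell. Of 27 further membrane proteins and transporters 11 rose and 6 fell with 13.6, and 10 rose and 9 fell with 13.8. With 13.6, 24.9% of all tested genes rose and 25.0% fell. Between the DsiRNAs 23 of the 67 were higher with 13.6 and 26 lower, 73.1% called, against 61.1% of all tested genes. LMBRD1, which exports cobalamin from the lysosome, stood at 74.3, 74.7 and 73.2 CPM in the 13.6 libraries, 70.9, 72.1 and 72.9 CPM in the 13.8 libraries, and 19.2, 21.2 and 23.1 CPM in the controls. All 6 knockdown libraries lay above every control (1.81 ± 0.07 with 13.6 and 1.77 ± 0.07 with 13.8). HYAL2, a hyaluronidase, rose with each DsiRNA (0.82 ± 0.11 and 1.41 ± 0.11), and the sialomucin CD164 rose with 13.6 (0.65 ± 0.06) and fell with 13.8 (−0.53 ± 0.06). The sialate esterase SIAE (−0.89 ± 0.10) and the transporter SLC46A3 (−0.74 ± 0.12) fell with 13.6 and rose with 13.8 (1.34 ± 0.09 and 0.64 ± 0.11), and the cobalamin transporter ABCD4 fell with each (−0.69 ± 0.08 and −0.36 ± 0.08).

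With 13.8 the largest rise of this list was that of the cysteine cathepsin CTSO (2.36 ± 0.19), and the largest falls were those of OSTM1, the partner of the chloride transporter CLCN7 (−1.14 ± 0.07), the amino acid transporter SLC36A1 (−0.99 ± 0.10) and the calcium channel MCOLN1 (−0.88 ± 0.06). With 13.6 these stood at 0.095 ± 0.21, 0.094 ± 0.07, −0.033 ± 0.10 and −0.12 ± 0.06 and did not pass. Of 14 genes of delivery and activation 5 rose and 6 fell with 13.6, and 2 rose and 6 fell with 13.8. The shares over all tested genes were 24.9% up and 25.0% down with 13.6, and 27.5% up and 27.9% down with 13.8. Both mannose 6-phosphate receptors, M6PR (0.42 ± 0.06) and IGF2R (0.51 ± 0.10), rose with 13.6 and stood at 0.12 ± 0.06 and −0.0036 ± 0.10 with 13.8. GNPTAB, of the enzyme that makes the mannose 6-phosphate tag, rose with each (0.46 ± 0.08 and 0.45 ± 0.08). Its subunit GNPTG fell with 13.6 (−0.56 ± 0.10) and stood at −0.073 ± 0.10 with 13.8, which did not pass. SUMF1, which activates all sulfatases, fell with 13.6 (−0.61 ± 0.08) and rose with 13.8 (0.37 ± 0.08). The 6 that fell with 13.8 were GGA2 (−0.83 ± 0.08), CLN6 (−0.49 ± 0.07), SUMF2 (−0.31 ± 0.06), GGA1 (−0.22 ± 0.06), SORT1 (−0.20 ± 0.07) and GGA3 (−0.20 ± 0.06). With 13.6 GGA2 (−0.55 ± 0.08), CLN6 (−0.66 ± 0.07) and SUMF2 (−0.27 ± 0.06) fell, SORT1 (0.23 ± 0.07) rose, and GGA1 and GGA3 did not pass. The genes named from delivery and activation and the cystatins were chosen after their values were seen.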

How the data were processed

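Per the labels' protocols, RNA of 501mel cells was extracted and sequenced as directional libraries. The submitters' processing notes name the tools STAR, HTSeq, cutadapt, FastQC and DESeq2, with hg19 as the build. Tool versions, annotation and the counter's strand option were not given in the sources used here. Raw counts per gene were deposited by the authors, with log2 values made from those counts scaled by a size factor, with 1 added. From those deposited log2 values the counts came back within 0.00201 of a read, and all tests used the counts. Of 25398 entries 16 repeats of a symbol with the same counts were left out, which leaves 25382, of which 28 carry date-like names (0.200% of reads).

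Genes were kept by filterByExpr (at least 10 reads), 14731 in all, and TMM factors were applied. A quasi-likelihood model with 1 mean per group was fitted to all 9 libraries (6 residual degrees of freedom, robust) with edgeR 4.0.16 in R 4.3.3, and p-values were Benjamini-Hochberg adjusted over all genes, two-sided. The code was tested on simulated counts in which a small share of genes changed, in 1 group, as many up as down. Far more genes were called in these data, so that test does not bear on the scaling between libraries. DESeq2 1.42.0 and limma 3.58.1 were alternatives. Library totals of 38105026 to 52272147 reads set the precision, and counting error weighs most on CTSK and GALC, whose reads are fewest.

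The members, lists, words and tests were chosen with earlier results of these data known. All members may be named, and values in each library are given for the 6 largest called rises and falls against control of each DsiRNA and for members called in opposite directions, besides CTSB. Of further lysosomal genes the 3 largest called rises and falls with each DsiRNA are named. Transcript lengths and UTRs are from GENCODE v29 and promoters from RefSeq, both GRCh38, and no hg19 positions are given. In GENCODE v29 exons of CTSA overlap NEURL2 and PLTP on the opposite strand, those of IDUA overlap SLC26A1, of CLN3 APOBR, of NPC1 RMC1 and of SGSH CARD14, and CTSD, HEXA, MAN2B1, CLN3 and IDS share exons with another coding gene on their own strand, so these counts are less certain. Same-numbered libraries were checked for pairing by the correlation of their deviations from the group means, which is given in the closing section.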

Additional observations from a re-analysis of the deposited data

Results flagged for a closer look

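The response of 4 members differed between the DsiRNAs by the direct test of 13.6 against 13.8, with calls against control on opposite sides of 0. Such calls, which share their control libraries, were made in 9.76% of the members and in 9.01% of all tested genes, counting either order. All 4 members were lower with 13.6 and higher with 13.8, as were 608 of the 14731 tested genes, while 719 were the reverse. GAA stood at −1.61 ± 0.10 on the log2 scale, 13.6 over 13.8 (edgeR adjusted p = 3.3e-08), CTSF −1.30 ± 0.07 (adjusted p = 6.3e-09), ARSA −1.10 ± 0.07 (adjusted p = 1.7e-08) and LGMN −0.61 ± 0.07 (adjusted p = 1.1e-05), where negative values mean lower with 13.6. In each, all 3 libraries with 13.6 lay below and all 3 with 13.8 above the 3 control libraries. Groups of 3 libraries were too small for a search for outlying samples.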

How the results depend on the processing

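The alternatives were DESeq2, limma-voom, DESeq2 size factors, library totals, no filter on low counts, a mean of at least 50 reads, an adjusted p under 0.01, a fit of the 2 groups alone, the replicate block and leaving out each library. Under all of these the count of called members stayed within 1.5 times its value, at 21 to 27 with 13.6, 27 to 33 with 13.8 and 23 to 28 between the DsiRNAs. Leaving out a library gave 23 to 25, 27 to 33 and 24 to 27. The median log2 fold change of the members with 13.6 was 0.037 with library totals, 0.089 with no filter and 0.022 to 0.082 without single libraries. With 13.8 it was 0.27 with at least 50 reads and 0.23 to 0.27 without single libraries. Between the DsiRNAs it was −0.012 with library totals, 0.053 with no filter, 0.0053 with at least 50 reads and 0.010 to 0.026 without single libraries, so its sign depends on the scaling. Library totals put the median of all genes at −0.046 with 13.6, 0.020 with 13.8 and −0.065 between the DsiRNAs, and no cause was tested.

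Of 1842 values of single members under an alternative, 1748 kept their direction and side of the threshold, 59 lost their call, 10 gained one and 25 changed sign, each of these close to 0 and not called. Library totals gave −0.043 for IDS, −0.0035 for PSAP, −0.010 for LIPA, −0.0033 for LAMP2 and −0.012 for CD63 between the DsiRNAs and −0.035 for CTSC, −0.0076 for MANBA and −0.0066 for NEU1 with 13.6, and at least 50 reads gave −0.027 for IDS between the DsiRNAs. Leaving out libraries gave −0.067 to 0.096 for CD63, −0.36 to 0.040 for CTSK and −0.026 to 0.024 for IDS between the DsiRNAs, −0.24 to 0.039 for CD63, −0.067 to 0.066 for CTSC, −0.025 to 0.081 for MANBA, −0.0018 to 0.076 for NEU1 and −0.11 to 0.017 for TPP1 with 13.6, and −0.27 to 0.0027 for CD63, −0.088 to 0.023 for CTSZ and −0.017 to 0.046 for NPC2 with 13.8.

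Same-numbered libraries of different groups deviated with correlations of −0.34 to 0.416, with 6 of 9 above 0.1, and 5 of 9 libraries correlated best with their own number. The labels give only a shared number, so the results use no pairing. With the replicate block, 27 members were called with 13.6 (15 higher, 12 lower), NPC1 (0.13) and LAMP2 (−0.13) among them and not without it, 32 with 13.8 and 27 between the DsiRNAs. Depth limits the values of CTSK, with 10 to 64 reads a library, and GALC, with 0 to 3.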
